A study of Mus musculus with 3 samples.

Results

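RNA of mouse T lineage cells that had received phospho-ascorbate (pAsc), a stabilised form of vitamin C, for 24 h was set against RNA of untreated cells on 1 Agilent array of 2 colours. Untreated RNA was in Cy3 and pAsc RNA in Cy5, and the value of a gene is the log2 ratio of Cy5 over Cy3, so that a positive value means higher with pAsc. Of the 41174 probes on the array, 25536 were well above background in both channels, and they gave 16971 of 27729 genes. These were the genes measured, chosen by signal and not by their ratio. The series holds 3 such arrays in all.

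The T lineage cells were grown for 14 days from C57BL/6 bone marrow progenitors, on OP9-DL1 stromal cells and with Flt3L and IL7. pAsc was at 800 µM for the final 24 h. The labels name the starting material, bone marrow, as the cell type, and state that, ahead of the RNA harvest, stromal cells were depleted by letting them adhere briefly. The same stromal line alone, labelled osteoblast and of strain B6-C3Hf1, was treated with 800 µM pAsc for 24 h on a second array, and a 17-day T cell culture received it for 72 h on the remaining array. There was 1 array for each comparison, with no replicate and no dye swap, so no test was possible, and an effect of the dye on a gene cannot be told apart from pAsc. A gene was called by size alone, at 2-fold.

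Vitamin C is a cofactor of enzymes that use iron and oxoglutarate, among them the hydroxylases that mature collagen, the TET enzymes that oxidise methylated cytosine and a class of histone demethylases. OP9-DL1 cells carry the Notch ligand Dll1, and bone marrow progenitors placed on them take up the T lineage programme. Interleukin 7 keeps early T cells alive through Il7r and the common gamma chain, Il2rg, which signal through JAK kinases and STAT5.

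The label of the cells was checked first. Of 25 T lineage markers 24 were measured, and in 20 of them untreated T cell RNA was at least 2-fold brighter than untreated stromal RNA, both in Cy3 on their own arrays. In 12 it was at least 16-fold brighter. Cd3g and Cd3d, chains of the receptor complex, were brighter by 9.10 and 9.03 on the log2 scale. Thy1 was not measured, and Cd4 and Rag2 were dim, at a normalized log2 Cy3 brightness of 6.58 and 6.42. The comparison was with stroma alone, which does not tell T cells from other blood cells. Median brightness in untreated T cell RNA was also 1251% of stroma for B cell markers. For natural killer, gamma-delta and innate markers it was 627%. The T lineage markers as a list had a median ratio of -0.05 beside 0.02 for all measured genes, and 0 of 24 reached 2-fold. Relative to all genes that is -0.07, and it was 0.03 when centred without loess. Zap70, a cytoplasmic kinase of T cell receptor signalling, was highest at 0.35, and Cd7, a surface glycoprotein of early T cells, was lowest at -0.54.

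At 24 h 53 genes were at least 2-fold higher with pAsc, 0.312% of those measured, and 2 were at least 2-fold lower, 0.0118%. At 1.5-fold the counts were 542 higher, 3.19%, and 39 lower, 0.23%. The counts and their split between directions depended on the scaling: it was 53 against 2 here, 147 against 32 with the ratio of the Agilent software, and 154 against 25 when ratios were centred on the measured genes without loess. Ratios ran from -1.55 to 1.61, and repeat spots of a probe had a log2 SD of 0.071 over 164 probes. Different probes of a gene had an SD of 0.14, over 5937 genes. Just over the limit lay Gstm2 at 1.00 and Pcdhb17 at 1.01, and just under it lay Rpl5 at 0.99. Of the 12 higher genes with several measured probes all had every probe above 0, but in 0 of them did every probe reach 2-fold.

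Most of the higher genes were bright in the stromal line. Untreated OP9-DL1 RNA was at least 2-fold brighter than untreated T cell RNA for 3370 genes, 19.9% of those measured, and 35 of the 53 higher genes were among them. In this group the median ratio was 0.19 and 80.9% of genes lay above 0, against a median of 0.02 for all measured genes. The 3220 genes at least 2-fold brighter in T cells had a median of -0.04 and 39.5% above 0. Relative to all genes their median was -0.06, and it changed sign, to 0.03, when centred without loess. The median ratio was higher at each further step of stromal brightness. It was 0.09 where stroma was brighter by 1 to 2 on the log2 scale (n = 1945), 0.30 from 2 to 3 (n = 899), 0.50 from 3 to 4 (n = 419) and 0.61 beyond 4 (n = 107). On the other side it was -0.18 for the 374 genes brighter in T cells by over 4.

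This order uses the untreated T cell Cy3 spot on both axes, and the count of 35 rests on the same spot. With the untreated Cy3 of the 17-day culture in its place, which shares no spot with the ratio, medians were 0.20 from 1 to 2 (n = 1817), 0.33 from 2 to 3 (n = 220) and 0.32 from 3 to 4, a step of 14 genes alone, with 1 gene beyond it. The medians were thus higher at each step of stromal brightness up to the step from 2 to 3, and too few genes lay above that to compare. On the array of the stromal cells alone, genes brighter in stroma by over 4 had a median of 0.03 with pAsc. In a bulk sample more stromal cells and more stromal RNA per cell cannot be told apart, and the share of stromal cells in either T cell sample was not tested.

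**Figure D1:**
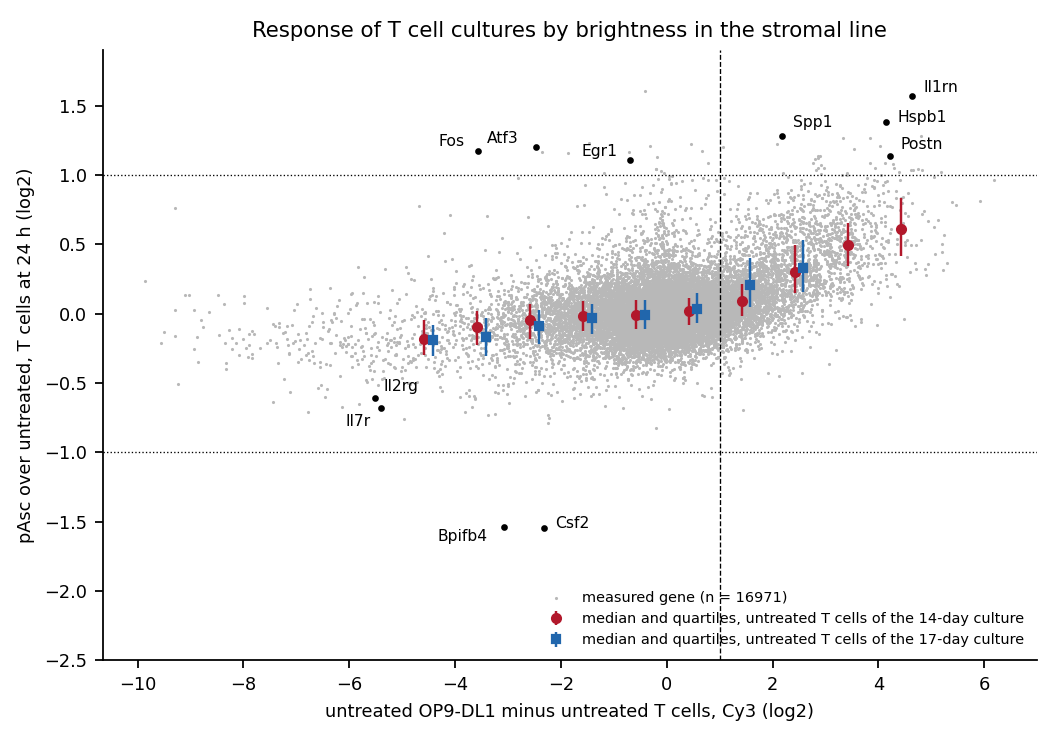
Each grey point is 1 of 16971 measured genes, with the brightness in untreated OP9-DL1 cells minus that in untreated T cells (log2, Cy3) on the horizontal axis and the ratio of pAsc over untreated T cells at 24 h (log2) on the vertical axis. Circles and squares are medians with quartiles for steps of 1 on the horizontal axis, with untreated T cells of the 14-day or the 17-day culture and at least 20 genes a step. With the 14-day culture medians climb from -0.18 to 0.61 from left to right. Dotted lines mark 2-fold, and the dashed line marks the 2-fold limit of stromal brightness.

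The stromal genes that were higher included those of connective tissue matrix. Fbn1, the microfibril protein fibrillin, reached a normalized log2 brightness of 11.76 in Cy5, with a ratio of 1.27 over Cy3. That probe holds a stretch of 8 alternating T and G bases, a feature described below. A second probe of Fbn1, without such a stretch, gave 0.77. Col1a2, which encodes a chain of type I collagen, went from 14.48 to 15.68, a ratio of 1.20, and Col1a1, the other chain, had 0.88. Postn, a matrix protein of bone and fibrous tissue, went from 9.24 to 10.37, a ratio of 1.14. Spp1, the secreted phosphoprotein osteopontin, was spotted 10 times and had a mean of 1.28 ± 0.064 (SD over 10 spots of 1 hybridisation).

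As groups, 28 measured stromal markers had a median of 0.70, with 28 of 28 above 0 and 5 called. Of all measured genes 54.7% lay above 0 and 0.312% were called higher, and of those brighter in stroma 80.9% and 1.04%. Among collagen chains the median was 0.59 and 5 of 24 were called, and other matrix genes had 0.53 with 6 of 28 called. The enzymes and partners that mature collagen, several of which need ascorbate, had a median of 0.36, with 18 of 18 above 0 and 0 called. Of these, 11 were brighter in stroma and had a median of 0.57, led by the lysyl oxidase Lox at 0.84, and the 7 that were not had 0.10. P4ha1, a collagen prolyl hydroxylase, was among the 7 and had 0.27. Of 526 genes at least 8-fold brighter in stroma, 15 lay below 0, and Igf2, an insulin-like growth factor, was the lowest of these at -0.36.

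Some called stroma-bright genes encode no matrix protein. The 95th percentiles of the steps from 1 to 2, 2 to 3 and 3 to 4 were 0.49, 0.81 and 0.90. A gene called at 2-fold passes these by that rule alone. Il1rn, the secreted antagonist of the interleukin 1 receptor, went from 9.07 to 10.63, a ratio of 1.57, where genes brighter in stroma by over 4 had a median of 0.61 and a 95th percentile of 1.08. Hspb1, a small heat shock protein, went from 9.25 to 10.63, a ratio of 1.38. Gdf15, a stress-induced member of the TGF-beta family, went from 9.98 to 11.20, a ratio of 1.22, and Hmox1, the haem oxygenase of the oxidative stress response, from 10.38 to 11.51, a ratio of 1.13. On the array of stromal cells alone the same genes had -0.10, 0.38, -0.13 and -0.20, in that order, all under 2-fold. Gdf15 and Hmox1 belong to the step from 2 to 3, which had a 95th percentile of 0.81 and in which Spp1, at 1.28, was the highest. Col1a2, at 1.20, was the highest of the step from 1 to 2. Of 31 measured genes of the oxidative stress response 4 were at least 1.5-fold higher, beside 3.19% of all measured genes. Of these 4, Hmox1, Me1 at 0.96 and Srxn1 at 0.92 were brighter in stroma, while Fth1, the heavy chain of ferritin, at 0.60, was not. In all 12 of the 31 were brighter in stroma. Of the 3370 measured genes brighter in stroma, 406 were at least 1.5-fold higher. The 31 measured members of that list had a median of 0.16, and those not brighter in stroma had 0.07.

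Of the 53 higher genes, 18 were less than 2-fold brighter in stroma. For 10 of these 18 the probe itself held a stretch of alternating T and G or alternating C and A of at least 7 bases. Such a stretch was present in the probe of 2.36% of measured genes and 55.6% of the 18. Of the 35 higher genes brighter in stroma 1 had it, Fbn1. The feature was noticed after the values were seen. Probes are 60 bases long. For the named ones, and for 2 probes with no gene symbol, 30 bases of the probe are shown from 5′ to 3′ with the alternating run in capitals, so that its length can be read beside the ratio. Positions are on mm9, per the file headers.
Dcaf12l2, chrX:41719637-41719696, run of 14, ratio 1.05: tgcctgatTGTGTGTGTGTGTGagtgattt
Ugt2b34, chr5:87319553-87319612, run of 13, ratio 1.17: tttatataaACACACACACACAtatagaca
probe with no symbol, chr5:135855161-135855220, run of 12, ratio 1.13: cTGTGTGTGTGTGattagcactaaaaggtc
Fam219aos, chr4:41465809-41465868, run of 10, ratio 1.01: agtacagctACACACACACcacttttcccg
probe with no symbol, chr7:17042327-17042386, run of 10, ratio 1.23: attgctcTGTGTGTGTGagtgtgggtgcac
Proz, chr8:13075883-13075942, run of 7, ratio 1.16: ctgtggacacagCACACACtgtagagaggt
Cldn15, chr5:137451465-137451524, run of 7, ratio 1.03: actACACACAtgcacacattctcaacaaaa

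The ratio climbed with the length of the run over all 25536 measured probes. The median was 0.0046 for the 20063 probes with runs of up to 4 bases, 0.028 for runs of 5 to 6 (4920 probes) and 0.085 for 7 to 8 (481 probes). It was 0.27 for 9 to 11 (59 probes) and 0.86 for 12 or more (13 probes). Of those 13 probes 12 lay above 0, 4 were at least 2-fold higher and 0 were brighter in stroma. Both kinds of run showed it, with 0.90 for the 8 probes with T and G runs of 12 or more and 0.65 for the 5 with C and A runs. The medians of the 13 on the stromal and the 72 h arrays were 0.26 and 0.24, also above those of probes with short runs but smaller. With the Agilent ratio the 13 had a median of 0.91 at 24 h.

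A gene with probes of both kinds shows the contrast within it. Mast4, a kinase gene, had a probe at chr13:103642941-103643000 with a run of 17 and a ratio of 1.03, shown here with the run in capitals.
Mast4, run of 17: tttataaACACACACACACACACAtatgcc
The brightest Mast4 probe, which has a run of 4, gave 0.25, and the lowest of its 3 measured probes gave 0.13. Other probes of Dcaf12l2 and Proz were not well above background in both channels, so those genes rest on the probe with the run. The part of the probe sequence in these ratios was not tested.

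**Figure D2:**
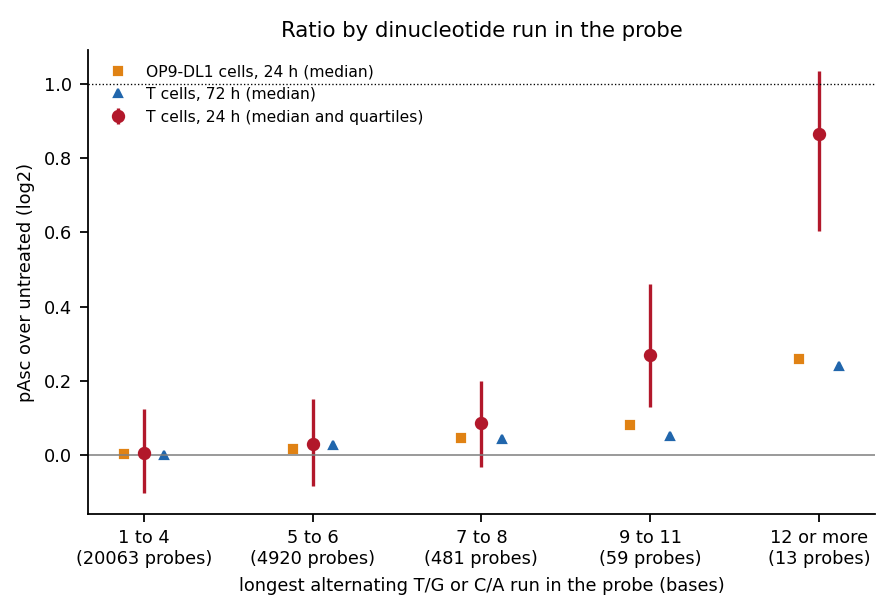
The horizontal axis gives the longest alternating run of T and G or C and A in the probe (bases), with the number of measured probes, and the vertical axis the ratio of pAsc over untreated (log2). Circles with bars are medians and quartiles of T cells at 24 h, squares medians of OP9-DL1 cells at 24 h and triangles medians of T cells at 72 h. At 24 h the median goes from 0.0046 to 0.86 across the classes, and on the other arrays it reaches 0.26 and 0.24.

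Without those, 8 higher genes were left that were neither at least 2-fold brighter in stroma nor read by such a probe. Fos, Egr1, Atf3 and Arc are immediate-early genes, which are transcribed within minutes of a signal with no need for new protein. Slpi, a secreted leukocyte protease inhibitor, and Col14a1, a fibril-associated collagen, were also among the 8. So was 9430085L16Rik, a cDNA with no gene name, which had the highest ratio, 1.61. It was dim, at 6.74 in Cy3 and 8.35 in Cy5.

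Fos was read by 10 spots of 1 probe at chr12:86817900-86817959. The spots had Cy3 mean signals from 1278 to 1762 and Cy5 mean signals from 7474 to 10383, and ratios from 1.09 to 1.27, with a mean of 1.17 ± 0.060 (SD, 10 spots). The SD is that of spots on 1 array, not of cultures. At 72 h the same spots had a mean of -0.25 ± 0.048, and on the stromal array 0.35 ± 0.097. Untreated T cells of the 17-day culture were brighter for Fos than those of the 14-day culture, by 2.29 on the log2 scale.

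Atf3, a stress-induced repressor and activator of the CREB family, went from 9.83 in Cy3 to 11.03 in Cy5, a ratio of 1.20. At 72 h it had -0.03 and in stromal cells -0.16. Its untreated level differed between cultures in the opposite way to that of Fos, being lower by -2.89 in the 17-day culture. Egr1, a zinc finger factor, went from 13.45 to 14.55, which is 2.15-fold higher, with log2 ratios of 0.45 at 72 h and -0.03 in stroma. Arc, known from synapses, went from 8.86 to 9.87, a ratio of 1.01, with 1.07 at 72 h and 0.53 in stroma. With the 17-day culture in the comparison of brightness, Arc passed the stromal limit, at 1.00 on the log2 scale. Arc reached 2-fold on both T cell arrays and Fos, Egr1 and Atf3 on the 24 h array alone. The difference between the arrays was not tested.

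Most members of the group lay on the same side, in counts that include the 4 called genes. Of 29 immediate-early genes on the array 28 were measured and 24 had a ratio above 0, with a median of 0.46, or 0.34 with the Agilent ratio. Of all measured genes 54.7% lay above 0. The number called was 4 of 28, beside 0.312% of all measured genes, and 9 passed 1.5-fold on the higher side, beside 3.19%. The phosphatase gene Dusp1 had 0.94, the factor Klf4 0.77, Fosb 0.71, Fosl1 0.69 and Jun 0.62. Jun was 10 spots of 1 probe. Those at or below 0 were Dusp2 at -0.25, Myc at -0.20, Egr3 at -0.07 and Egr2 at -0.04. Of the 28, 1 was at least 2-fold brighter in stroma, Fosl2 at 0.55. The median of the list on the 72 h array was 0.17 and on the stromal array 0.04.

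The promoters of these genes were searched for TGACGT, the core that factors of the CREB and ATF family bind, on both strands of the 250 bases before the start. RefSeq sequences (GRCm38.p6) were at hand for 21 of the 28 genes, and 7 of these 21 held it, against 7.29% of 27025 genes. The 7 were Fos, Egr2, Egr4, Atf3, Dusp1, Btg2 and Maff, and they had a median ratio of 0.53, beside 0.45 for the other 14. Other motifs were searched in the same way. GCGNGGGCG, the motif of EGR factors, was in 9 of the 21, against 5.33% of genes, and the 9 had a median ratio of 0.44, beside 0.49 for the rest. TGANTCA, the AP-1 motif, was in 0 of the 21, against 7.82% of genes. The CArG box, bound by serum response factor, was in 2, Egr2 and Zfp36, against 1.62%, with a median of 0.08 beside 0.51. A match is a description of the letters and not a site shown to be used. The promoters of the 3 members with the highest ratios among the 7 are shown 5′ to 3′ on the strand of the gene, with TGACGT and its reverse complement in capitals.
Fos, chr12:85473640-85473889, plus strand: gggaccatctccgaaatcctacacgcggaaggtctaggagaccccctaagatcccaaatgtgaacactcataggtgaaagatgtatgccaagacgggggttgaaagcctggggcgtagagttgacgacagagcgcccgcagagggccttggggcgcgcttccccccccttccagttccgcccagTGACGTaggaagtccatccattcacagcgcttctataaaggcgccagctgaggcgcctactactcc
Atf3, chr1:191183334-191183583, minus strand: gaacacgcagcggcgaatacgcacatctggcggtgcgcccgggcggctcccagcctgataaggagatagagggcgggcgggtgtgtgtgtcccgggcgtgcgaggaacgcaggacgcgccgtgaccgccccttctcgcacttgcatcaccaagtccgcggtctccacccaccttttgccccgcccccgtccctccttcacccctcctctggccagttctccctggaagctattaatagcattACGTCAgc
Dusp1, chr17:26508473-26508722, minus strand: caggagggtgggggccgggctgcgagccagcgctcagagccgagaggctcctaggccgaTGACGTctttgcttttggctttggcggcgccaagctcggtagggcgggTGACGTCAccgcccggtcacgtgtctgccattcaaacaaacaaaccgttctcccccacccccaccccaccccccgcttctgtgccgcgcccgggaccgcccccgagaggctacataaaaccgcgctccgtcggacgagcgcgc
In Fos the match began 66 bases before the start and in Atf3 8 bases before it, there on the opposite strand. Dusp1 held 3 matches, of which a pair overlapped in the palindrome TGACGTCA, which 3 of the 21 and 1.77% of all genes held.

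Slpi went from 10.64 to 11.81, a ratio of 1.17, with 0.29 at 72 h and 1.13 in stroma. Col14a1 went from 7.32 to 8.40, a ratio of 1.08, with 0.55 at 72 h and 1.43 in stroma. Slpi and Col14a1 were thus also past 2-fold in treated stromal cells, and both were brighter in untreated stroma than in untreated T cells by less than the 2-fold limit, 0.66 and 0.79 on the log2 scale. With the 17-day culture in the comparison of brightness, Slpi was instead at least 2-fold brighter in T cells. Without loess, centred on the measured genes, Col14a1 had 0.91 and fell short of the limit.

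**Figure D3:**
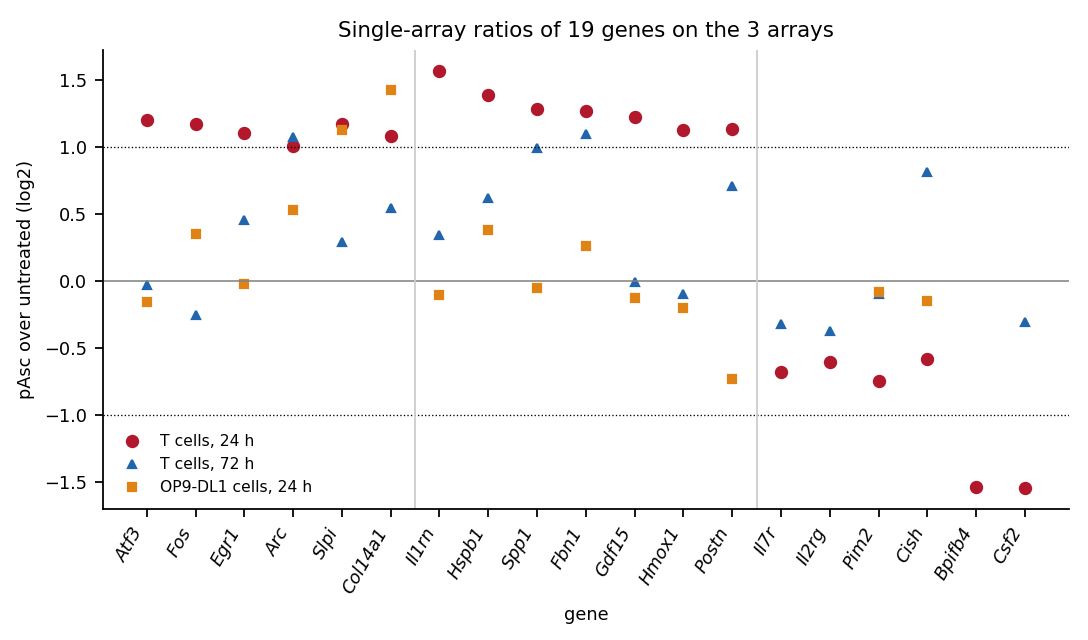
The log2 ratio of pAsc over untreated (vertical axis) is plotted for 19 genes (horizontal axis) on each array where the gene was measured: circles are T cells at 24 h, triangles T cells at 72 h and squares OP9-DL1 cells at 24 h. Each point is 1 array, with no error. The left block holds genes higher at 24 h and not brighter in stroma, the middle block genes brighter in stroma and the right block lower genes. Arc alone of the left block is past 2-fold on both T cell arrays, and Csf2 goes from -1.55 at 24 h to -0.31 at 72 h.

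Only Csf2 and Bpifb4 were at least 2-fold lower. Csf2 encodes GM-CSF, a cytokine made by activated T cells. Its 10 spots had Cy3 mean signals from 211 to 292 and Cy5 mean signals from 169 to 218, on an array where Cy5 was typically the brighter channel, with a median ratio of raw mean signals of 2.57. After normalization the 10 ratios ran from -1.67 to -1.40, with a mean of -1.55 ± 0.092 (SD, 10 spots). The Agilent ratio for Csf2 was -2.25. At 72 h its 10 spots had -0.31 ± 0.038, and in stromal cells it was not measured. Bpifb4, of a family of secreted lipid-binding proteins, went from 9.23 to 7.68, a ratio of -1.54, and was measured on neither of the other arrays. The next lowest was Dhx58, an RNA sensor of the interferon response, at -0.83, beside 1.49 in stromal cells and -0.92 at 72 h.

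Among 19 measured effector cytokines and chemokines the median was -0.14, with 6 above 0 and 1 called lower, beside 0.0118% of all measured genes called lower and 54.7% above 0. Osm, an interleukin 6 family cytokine, had -0.73. Tnf had -0.59 and Il4 -0.59, each from 10 spots of a probe. Ifng, the type II interferon, was on the other side at 0.79, from a dim 7.84 in Cy3 to 8.63 in Cy5. The cytokine genes thus did not share 1 direction.

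Receptors and targets of the common gamma chain cytokines mostly had ratios below 0, none past 2-fold. Of 23 measured members 5 lay above 0, beside 54.7% of all measured genes and 39.5% of those brighter in T cells. The median was -0.22, and 0 were called. At least 1.5-fold lower were 4 members, as were 0.23% of all measured genes and 0.90% of those brighter in T cells. Relative to the median of all genes the list was at -0.24, and at -0.04 when ratios were centred without loess. Among receptors, Il7r went from 11.59 to 10.91, a ratio of -0.68, and its 3 measured probes ran from -0.68 to -0.21. Il2rg, the shared chain, went from 11.81 to 11.20, a ratio of -0.61. Il4ra had -0.31 and Il2rb -0.25. Il2ra had -0.18, and changed sign without loess. Among genes induced by STAT5, the kinase genes Pim2 and Pim1 had -0.75 and -0.58, the feedback inhibitor Cish -0.58 and the survival gene Bcl2 -0.21. The signal carriers differed less: Jak1 had -0.03, Stat5a 0.06 and Stat5b 0.25. At 72 h Il7r and Il2rg had -0.32 and -0.37, while Cish had 0.81. The list had a median of 0.02 on the stromal array.

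Markers of natural killer, gamma-delta and innate cells had ratios on 1 side. All 16 measured members lay below 0, where 54.7% of all measured genes and 39.5% of those brighter in T cells lay above it. The list had a median of -0.27, or -0.51 with the Agilent ratio, and 0 were called. Klrb1c, an NK receptor, had -0.67, the signalling chain Fcer1g -0.52, and the factor Sox13 -0.37. The granzymes Gzma and Gzmb, bright at 15.65 and 15.26 in Cy3, had -0.22 and -0.16. At 72 h the median of this list was -0.46. Surface markers of selection and maturation had a median of -0.14 over 23 measured members, with 7 above 0, and relative to all genes it changed sign, to 0.015, without loess. Il7r belongs to that list too, and the costimulator Icos had -0.55. Members of the selection and maturation list had a median of -3.92 for stroma minus T cells in Cy3 (log2). All measured genes from -4 to -3 on that scale had a median ratio of -0.10, with 27.5% above 0.

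**Figure D4:**
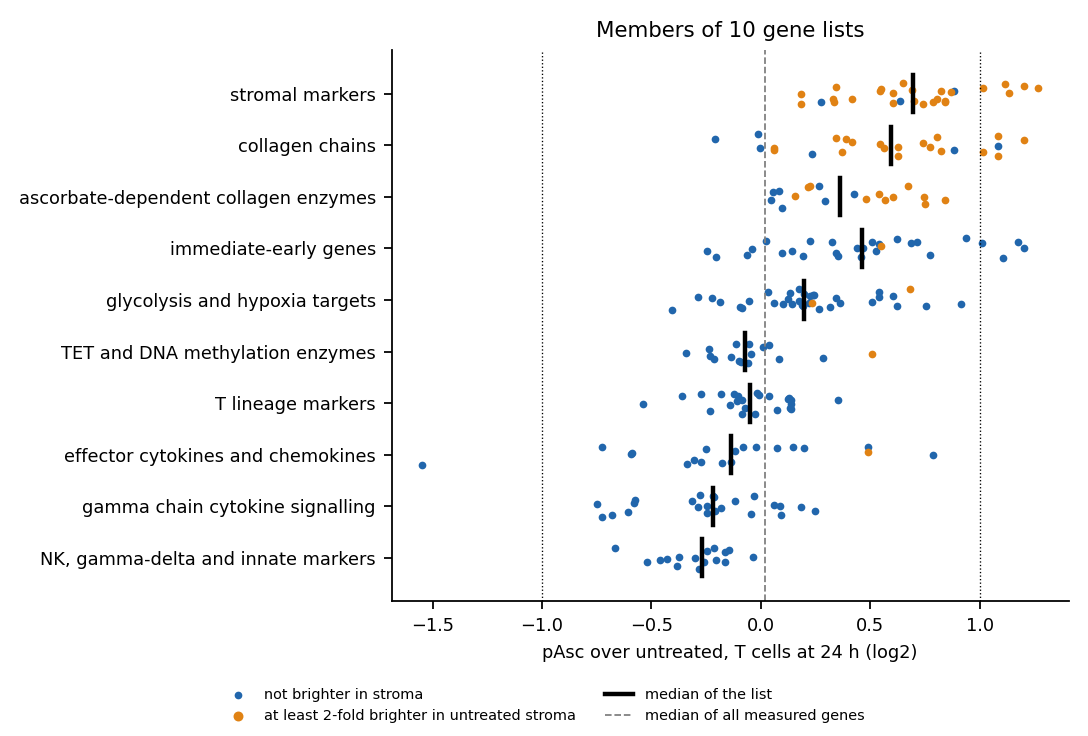
Each point is a measured member of a gene list (rows), placed by its ratio of pAsc over untreated T cells at 24 h (log2, horizontal axis); orange members are at least 2-fold brighter in untreated stroma and blue ones are not. Black bars are list medians, the dashed line is the median of all measured genes and dotted lines mark 2-fold. Stromal markers sit above 0 and natural killer markers below 0, and the immediate-early genes, nearly all blue, have a median of 0.46.

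The lists that hold the chromatin enzymes with vitamin C as a cofactor had medians close to that of all genes. The TET and DNA methylation enzymes, a list not limited to the TET genes, had a median of -0.07 over 16 members and 0 called, with Tet1 at 0.04 and Tet2 at 0.29. The histone demethylases of the JmjC class had 0.06 over 22 members, and 0 were called. The vitamin C transporters Slc23a2 and Slc23a1 had -0.0043 and 0.08. In glycolysis and hypoxia targets the median was 0.20 over 35 members, or 0.17 with the Agilent ratio, beside 0.02 and -0.02 for all measured genes. Of the 35, 28 lay above 0 and 5 were at least 1.5-fold higher, beside 54.7% and 3.19% of all measured genes. The number called was 0, and 2 were brighter in stroma. Relative to all genes the median ran from 0.16 to 0.40 over 11 settings, the highest without loess. Aldoa had 0.91 and Pgk1 0.76. Genes above a mean log2 brightness of 16 (n = 93) had a median of 0.58 after loess and 0.21 with the Agilent ratio, and Aldoa and Pgk1 had 0.40 and 0.39 with it. Ribosomal protein genes, 18 of 24 of them in that bright class, had 0.57 against 0.23, so their height depended on the scaling. Of the glycolysis and hypoxia list 3 members were in that class.

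Genes above background in 1 channel alone added little. There were 1613 seen only with pAsc and 51 only without it, and 0 of either had a bound of 2-fold. The bounds are open to dye bias.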

How the data were processed

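Labelled RNA of 3 comparisons was read on 3 Agilent arrays of 2 colours. The authors deposited spot intensity values, as mean signal and median background per channel, and a log10 ratio of Cy5 over Cy3, made with Agilent Feature Extraction 10.5.1.1 on build mm9, per the file headers. The log10 ratio was turned to log2 and used as an alternative. Here limma 3.58.1 in R 4.3.3 corrected the background (normexp, offset 50) and normalized within the array (loess, span 0.3), with control and outlier spots at weight 0. The offset draws ratios of dim genes towards 0. Brightness across arrays was compared after Aquantile scaling.

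Spots of a probe were averaged, and a gene took its brightest probe. A gene was measured with a share of at least 0.5 of its spots well above background in both channels. RefSeq (GRCm38) named 25089 probes through their accession, 6339 through the symbol and 1639 through a synonym; the file's own name stayed for 8107. The rule for named genes took the 25 highest and 20 lowest, each called gene not brighter in stroma, up to 5 of the largest ratios per list of 49 lists, and a fixed look-up set. The text shows a selection of them, by group, and 1 gene that met the rule is not reported here. Members and lists were chosen with earlier results of these data known. Steps were checked on simulated data. Python 3.11.15, numpy 2.4.6 and pandas 2.3.3 made the counts. The number of arrays limits the precision.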

Additional observations from a re-analysis of the deposited data

Results flagged for a closer look

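Postn was at least 2-fold higher in T cell cultures with pAsc at 24 h, at 1.14, and had -0.74 in stromal cells treated alone for the same time. The ratios point in opposite directions on 1 array each, and the difference was not tested. At 72 h the T cell value was 0.71.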

How the results depend on the processing

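No paired analysis was possible because each comparison is 1 array. The number of genes at least 2-fold higher was 53, and it was 113 with a normexp offset of 0, 160 with plain subtraction, 147 with the Agilent ratio, 748 with centring on all probes, 154 with centring on measured genes and 542 at 1.5-fold. Centring on all probes put the median of measured genes at 0.41, so its counts are shifted by construction. In the same settings the number lower was 7, 30, 32, 2, 25 and 39, against 2. The number higher and brighter in stroma was 77, 103, 101, 412, 54 and 406, against 35. The number higher and not brighter was 36, 57, 46, 336, 100 and 136, against 18, and also 28 with the mark from the 17-day culture and 8 without probes holding runs of 7 or more, an alternative added after seeing the data. Counting only probes without runs, it was 19, 37, 26, 306, 86 and 108, against 8, with 16 at a loess span of 0.7 and 20 with the 17-day mark. The median of genes brighter in stroma, minus that of all genes, was 0.17, and 0.35 with the mark at 4-fold. Over the 14 settings it ran from 0.12 to 0.35. For genes brighter in T cells the same difference ran from -0.11 to 0.03, above 0 only when centred without loess. The cause of these shifts was not tested beyond what each setting does by construction. Of the 53 higher genes, 52 remained at least 2-fold with an offset of 0, 50 with the Agilent ratio and 43 with the median over probes. Relative to all genes, list medians ran from 0.36 to 0.60 for immediate-early genes, -0.27 to -0.04 for gamma chain genes and -0.49 to -0.27 for natural killer markers over 11 settings. Centring without loess, in both forms, turned the sign of 13 of 49 list medians relative to all genes. Among them were MHC class I genes (from -0.13 to 0.20), T lineage markers (from -0.07 to 0.03), selection and maturation markers (to 0.015), the interleukin 1 family (to -0.021) and the BCL2 family (to 0.032). Il2ra also changed sign, to 0.46 centred on all probes and 0.048 on measured genes. Of 720 gene values 151 moved by over the SD between probes. Dim signals limit the rest, since 1613 genes were above background with pAsc alone.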

Other observations

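Genes of other blood lineages differed in direction at 24 h, all under 2-fold. Of 13 measured B lineage markers 10 lay above 0, with a median of 0.15 and a range from -0.43 to 0.51. Vpreb3 and Igll1, parts of the pre-B cell receptor, had 0.34 and 0.25, and Blnk, its adaptor, 0.32. At 72 h Vpreb3, Igll1 and Blnk had -0.97, -1.04 and -1.02, while the 13 members together had a median of -0.16 there. Pax5 was not measured. Of 17 measured progenitor genes 6 lay above 0, with a median of -0.20. The factors Lyl1, Myb and Erg had -0.47, -0.40 and -0.32, while Cd34, the surface sialomucin of progenitors, had 0.77 at 24 h and -1.79 at 72 h. Among erythroid and megakaryocyte markers the transferrin receptor Tfrc had -0.51 and Hemgn -0.41, and 1 of 7 lay above 0, with a median of -0.28, the lowest of the 49 lists. Of 19 myeloid markers on the array 12 were measured, with a median of -0.02, and Itgam, Elane and Spi1 were not measured.

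Interferon-stimulated genes had a median of -0.01 over 31 measured members in T cells at 24 h, and 14 lay above 0. The same members had a median of 1.11 on the array of stromal cells. Ifit1 had 0.23 in T cells beside 2.02 in stroma, and Bst2 -0.23 beside 1.35. In the p53 target list the 28 members had a median of 0.05. The 1 gene called was Gdf15, itself brighter in stroma, beside 0.312% of all measured genes called higher. The 13 members brighter in stroma had a median of 0.14, and the 15 that were not had -0.12.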
